A study of Mus musculus with 6 samples.

Results

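Muscle calcium cycling and energy enzymes were followed in mouse tumours through 10 genes: Atp2a1, Ryr1, Casq1, Cacna1s, Trdn, Pvalb, Ckm, Pygm, Eno3 and Ampd1. They were taken from a named list of excitation-contraction and energy genes of skeletal muscle, and every probe set whose only annotated gene was 1 of the 10 was kept. This gave 17 of the 34945 probe sets with 1 gene symbol, or 10 of 18193 genes. No level cut-off was applied, so all 17 entered each result. The samples were 6 tumours grown from GLMT1 cells, a GRS/A mouse tumour line named after a lung metastasis, under the back skin of male hosts. Of these, 3 grew in tenascin-C-deficient GRS/A-TgH(TnC) hosts (TNKO) and 3 in wild type GRS/A hosts (WT), which were 8 weeks old when taken into use and are given as 10 weeks old in the sample labels. Both groups received the same cells, 100 microlitres at 1e+07 cells per ml, and the comparison asks how gene expression in the excised tumour differed with host tenascin-C, a matrix glycoprotein. The tumour cells are 1 line and are not described as lacking Tnc, so the deficiency is one of the host. RNA came from the excised tumours, and what tissue was cut out with them is not given in the sources used here.

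In skeletal muscle, depolarisation of the transverse tubule moves a voltage sensor, which opens the calcium release channel of the sarcoplasmic reticulum and lets calcium reach the contractile filaments. A calcium pump then refills the reticulum, where a binding protein holds the calcium, and fast fibres also hold a cytosolic calcium buffer. Contraction and pumping use ATP, which is restored from creatine phosphate, from glycogen through glycolysis, and through the handling of AMP. Most of the 10 genes are the skeletal muscle members of families whose other members work in heart, brain, liver or most cells. The dorsal skin of the mouse lies on a thin sheet of skeletal muscle, the panniculus carnosus.

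Promoter sequence was available for 8 of the 10 genes in the RefSeq table (build GRCm38.p6), which holds 250 bases before and 50 after an annotated gene start. The sequences below are shown because the 10 genes largely shared 1 order of tumours, described further on; they are those of Ckm, of Atp2a1, of Pygm, which has the most E-boxes among the 8, and of Pvalb at the start that holds a MEF2-type element. Capitals mark matches, on either strand, to the E-box CANNTG bound by myogenic factors, the MCAT element CATTCC, the MEF2 element and the CArG box.
Ckm, chr7:19410844-19411143, plus strand: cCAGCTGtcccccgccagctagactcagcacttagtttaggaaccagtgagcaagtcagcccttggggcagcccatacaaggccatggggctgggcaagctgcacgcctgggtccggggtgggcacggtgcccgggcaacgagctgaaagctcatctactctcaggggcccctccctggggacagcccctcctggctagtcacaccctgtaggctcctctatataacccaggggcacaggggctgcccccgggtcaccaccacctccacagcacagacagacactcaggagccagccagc
Atp2a1, chr7:126463024-126463323, minus strand: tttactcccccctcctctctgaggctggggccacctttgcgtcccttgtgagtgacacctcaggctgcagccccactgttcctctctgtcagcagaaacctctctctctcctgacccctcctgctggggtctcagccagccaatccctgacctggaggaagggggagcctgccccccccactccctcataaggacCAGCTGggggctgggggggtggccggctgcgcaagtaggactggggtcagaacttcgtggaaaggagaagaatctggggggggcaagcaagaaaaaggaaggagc
Pygm, chr19:6384158-6384457, plus strand: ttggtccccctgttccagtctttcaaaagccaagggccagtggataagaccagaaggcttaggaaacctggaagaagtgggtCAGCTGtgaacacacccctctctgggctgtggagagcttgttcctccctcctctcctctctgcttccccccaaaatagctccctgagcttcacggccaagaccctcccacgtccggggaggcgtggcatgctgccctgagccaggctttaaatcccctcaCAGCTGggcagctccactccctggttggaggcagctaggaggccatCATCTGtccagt
Pvalb, chr15:78206351-78206650, minus strand: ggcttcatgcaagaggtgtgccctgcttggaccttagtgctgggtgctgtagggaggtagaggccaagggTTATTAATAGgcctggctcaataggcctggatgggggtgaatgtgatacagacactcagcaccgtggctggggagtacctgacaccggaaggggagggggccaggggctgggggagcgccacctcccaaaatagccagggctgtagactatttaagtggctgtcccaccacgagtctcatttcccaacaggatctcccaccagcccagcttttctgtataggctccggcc
The capitals in Ckm, Atp2a1 and Pygm are E-boxes and those in Pvalb the MEF2 element, and no matches overlapped. An E-box was found in 7 of the 8 genes, all but Ryr1, against 72.3% of the 32851 promoters in the table, so its presence is common to most genes. The spelling CAGCTG, counted after the matches had been seen, was in 6 of the 8 (Atp2a1, Cacna1s, Casq1, Ckm, Eno3 and Pygm) and in 16.3% of all promoters. MCAT was matched in 2 of 8 (Cacna1s and Eno3; 14.7% of all promoters), MEF2 in 1 of 8 (3.19%) and CArG in 0 of 8 (1.63%). The percentages count promoters, and these 8 genes have 9 promoters, as Pvalb has more than 1 start. Counted so, the E-box was in 7 of 9, CAGCTG in 6, MCAT in 2, MEF2 in 1 and CArG in 0. All of these are matches of letters within 300 bases and say nothing of binding.

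Levels are the authors' deposited values, taken as log2 units. Differences between tumours on this scale were very small: the median probe set spanned 5.46e-06 units between the lowest and the highest tumour, so a difference is not a fold change. Ranges, means and sums over probe sets are given as descriptions of the deposited scale, not as a comparison of transcript amounts between genes. The array medians rounded to 6.57 in all 6 tumours, but were 6.5698 in TNKO tumour 3 against 6.5674 to 6.5676 in the other tumours. The number of arrays limits the precision, and the table holds no detection calls. Tnc itself stood at 8.797, 8.822 and 8.832 in TNKO tumours and at 9.014, 9.043 and 8.995 in WT tumours in its brighter probe set, with no overlap (difference -0.20, SE 0.016, adjusted p = 0.0537). The labels call the tumours of a group biological replicates without saying that each came from its own mouse, so p-values measure the spread between these samples. One tumour stood apart in another gene group: 8 of 13 hair and epidermis markers were highest in TNKO tumour 3, where the hair keratin-associated gene Krtap8-1 stood at 12.60, against 5.98 and 6.15 in the other TNKO tumours and 5.95 to 6.05 in WT tumours.

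Across the 10 genes the mean level was lower in TNKO hosts than in WT hosts in each brightest probe set, against 42.4% of all genes. However, the groups overlapped in all 17 probe sets and none passed limma's test. In Cacna1s, Trdn and Ampd1 the direction turned when single tumours were left out. The 10 genes largely shared 1 order of tumours. In it TNKO tumours 1 and 2 were low, TNKO tumour 3 and WT tumour 2 were high, and WT tumours 1 and 3 lay between them in most genes. Over all probe sets 0.175% were called at an adjusted p under 0.05 (0.133% lower), 20.3% had an unadjusted p under 0.05, and 28% had groups that did not overlap. The 17 probe sets had 0 of each, with adjusted p-values of 0.412 to 0.883. Exact permutation p-values over the tumours (two-sided, smallest possible 0.1) ran from 0.2 to 0.8. In whole tumours, fewer muscle cells and less RNA per muscle cell cannot be told apart.

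**Figure D1:**
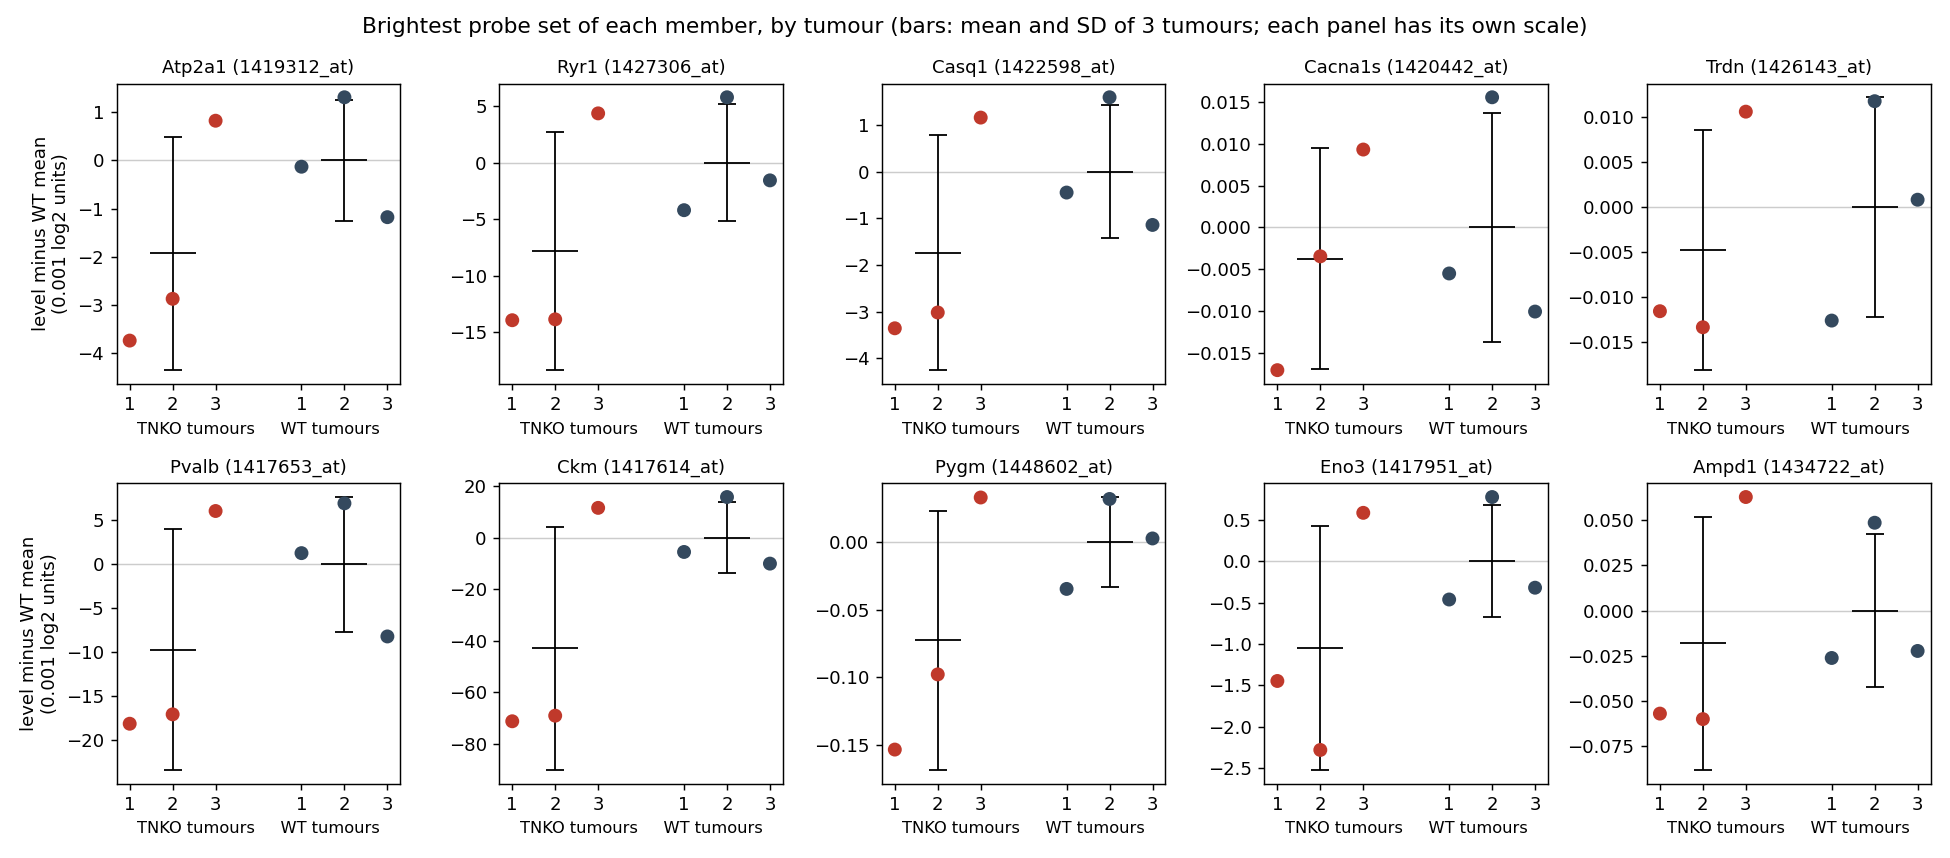
Level of the brightest probe set of each of the 10 genes in each tumour, as the difference from the WT mean in units of 0.001 log2 (vertical axes differ between panels). Points are single tumours, red for TNKO and dark for WT hosts, and bars give the mean and SD of 3 tumours. TNKO tumour 3 lies above the WT mean in every panel, while TNKO tumours 1 and 2 lie below it.

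Of the calcium genes, Ryr1, the release channel of the sarcoplasmic reticulum, was measured by 2 probe sets that gave the same picture. Its brighter probe set stood at 5.8523, 5.8524 and 5.8706 in TNKO tumours 1 to 3, and at 5.8620, 5.8720 and 5.8647 in WT tumours 1 to 3. The 2 lowest were TNKO tumours 1 and 2, TNKO tumour 3 lay between WT tumours, and the groups overlapped. The mean was 5.858 ± 0.011 in TNKO tumours and 5.866 ± 0.0052 in WT tumours (SD, n = 3 each), a difference of -0.00782 (SE 0.00634, adjusted p = 0.553). The dimmer probe set differed by -0.00929 (SE 0.00582, adjusted p = 0.443). Each difference was smaller than the SD of the TNKO tumours.

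Atp2a1 encodes SERCA1, the calcium pump of fast fibres. Its levels were 6.5056, 6.5064 and 6.5101 in TNKO tumours, and 6.5092, 6.5106 and 6.5081 in WT tumours. Again TNKO tumours 1 and 2 were lowest and TNKO tumour 3 was second only to WT tumour 2. The difference was -0.00193 (SE 0.00147, adjusted p = 0.527). Casq1, calsequestrin of the reticulum lumen, had the same order, with 5.9364, 5.9367 and 5.9409 in TNKO tumours and 5.9393, 5.9414 and 5.9386 in WT tumours. It differed by -0.00174 (SE 0.00156, adjusted p = 0.593).

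Pvalb encodes parvalbumin, the cytosolic calcium buffer that speeds relaxation of fast fibres. It stood at 6.3742, 6.3753 and 6.3985 in TNKO tumours, and at 6.3937, 6.3993 and 6.3842 in WT tumours. The gap within the TNKO group, between tumours 2 and 3, was wider than the whole range of the WT group. The difference of the means was -0.00973 (SE 0.00846, adjusted p = 0.582).

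Cacna1s, the voltage sensor of the transverse tubule, had a narrow range on the deposited scale. Its values were 6.107976, 6.107989 and 6.108002 in TNKO tumours and 6.107987, 6.108008 and 6.107983 in WT tumours, a difference of -3.74e-06 (SE 1.03e-05, adjusted p = 0.883). TNKO tumour 1 was lowest and WT tumour 2 highest, but TNKO tumour 2 lay above WT tumours 1 and 3. The range over the tumours was 3.27e-05, and 15.3% of all probe sets spanned more. Without TNKO tumour 1 its difference was 2.93e-06, and without WT tumour 2 it was 4.05e-06, so its direction rests on single tumours.

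Trdn encodes triadin, which ties calsequestrin to the release channel, and was measured by 6 probe sets that did not behave alike. Probe sets 1426142_a_at and 1426144_x_at differed by -0.00171 (SE 0.00165, adjusted p = 0.622) and -0.0015 (SE 0.00152, adjusted p = 0.639). In the first of them TNKO tumours stood at 5.5533, 5.5535 and 5.5584, and WT tumours at 5.5564, 5.5581 and 5.5559, the order seen in Casq1 except that TNKO tumour 3 exceeded WT tumour 2. The brightest, 1426143_at, is annotated to the same transcript record as these 2 but spanned only 2.51e-05, and TNKO tumours 1 and 2 were level with WT tumour 1 there. Its difference was -4.77e-06 (SE 9.77e-06, adjusted p = 0.836). Probe set 1451801_at, annotated to another record, kept the shared order over a range of 2.02e-05. The remaining pair, 1426134_at and 1451940_x_at, is annotated to yet another record and spanned 3.35e-06 and 2.7e-06, less than the median probe set. In that pair WT tumour 2 was not the highest, and the differences were 1.03e-06 and -1.16e-06. Probe sets marked _x_at can also bind other sequences.

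Of the energy genes, Ckm had the widest range of the 10 on the deposited scale. It encodes muscle creatine kinase, which regenerates ATP from creatine phosphate. Its levels were 6.5028, 6.5050 and 6.5857 in TNKO tumours, and 6.5686, 6.5899 and 6.5640 in WT tumours. TNKO tumours 1 and 2 lay apart from the other 4 tumours, and TNKO tumour 3 was the second highest. The mean was 6.53 ± 0.047 in TNKO tumours and 6.57 ± 0.014 in WT tumours (SD, n = 3 each), a difference of -0.043 (SE 0.0266, adjusted p = 0.437). Only 0.218% of all probe sets spanned more than the 0.0871 units of this one. The other Ckm probe set, 1444643_at, did not share the pattern: it spanned 1.02e-05, had its lowest value in TNKO tumour 2 and its highest in TNKO tumour 3, and differed by 3.28e-06 (SE 2.82e-06, adjusted p = 0.576).

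Pygm encodes muscle glycogen phosphorylase, which frees glucose units from glycogen. Its levels were 6.33149, 6.33155 and 6.33168 in TNKO tumours and 6.33161, 6.33168 and 6.33165 in WT tumours. TNKO tumour 3 and WT tumour 2 were close to equal at the top. The difference was -7.29e-05 (SE 5.48e-05, adjusted p = 0.521). Eno3, the muscle enolase of glycolysis, stood at 8.5986, 8.5977 and 8.6006 in TNKO tumours and at 8.5995, 8.6008 and 8.5997 in WT tumours. It differed by -0.00105 (SE 0.000876, adjusted p = 0.567), and here TNKO tumour 2 rather than tumour 1 was lowest.

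Ampd1 encodes the muscle AMP deaminase, which converts AMP to IMP. It stood at 5.98843, 5.98842 and 5.98855 in TNKO tumours, and at 5.98846, 5.98853 and 5.98846 in WT tumours. TNKO tumour 3 was the highest of the 6 and TNKO tumours 1 and 2 the 2 lowest, so the TNKO group covered the whole range. The difference was -1.81e-05 (SE 4.41e-05, adjusted p = 0.866), and it was above 0 without TNKO tumour 1 (1.38e-06), without TNKO tumour 2 (2.9e-06) or without WT tumour 2 (6.21e-06).

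**Figure D2:**
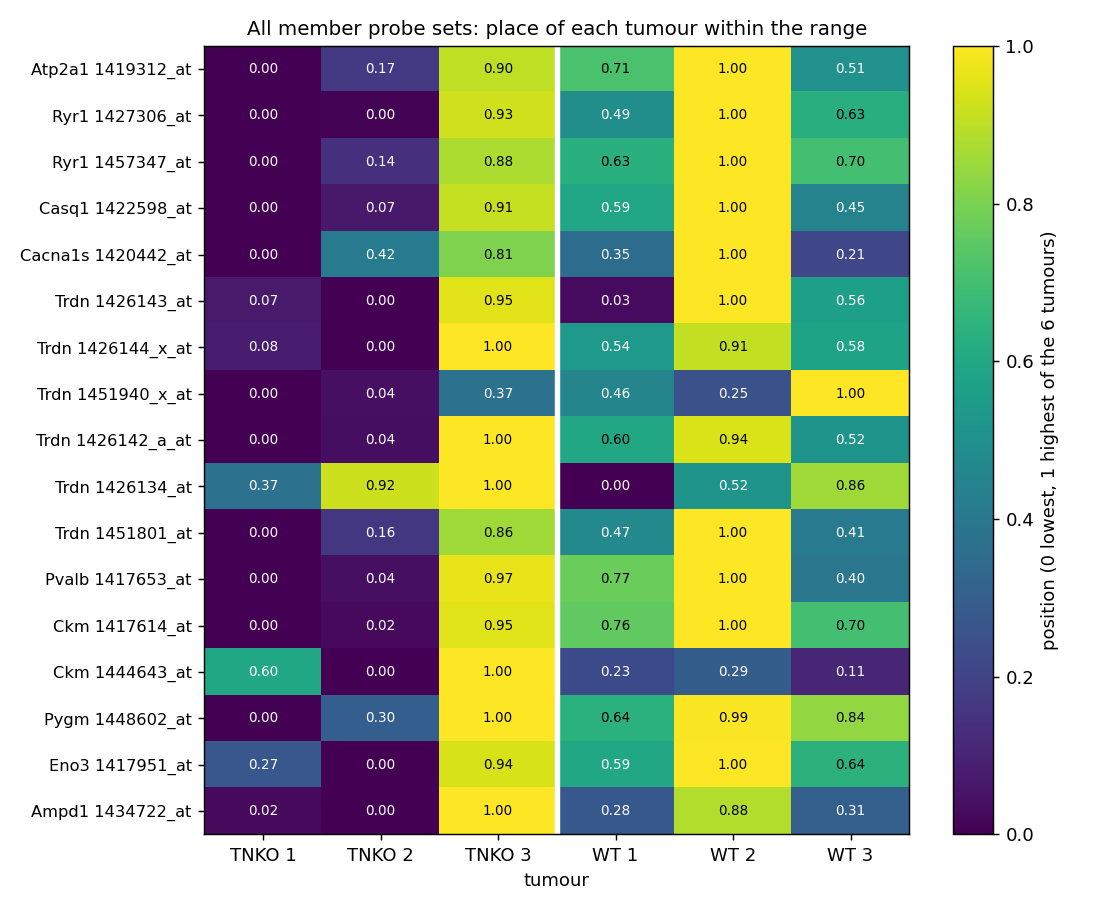
Place of each tumour (columns) within the range of each of the 17 probe sets (rows), from 0 for the lowest to 1 for the highest of the 6 tumours. TNKO tumours 1 and 2 are at the low end and TNKO tumour 3 and WT tumour 2 at the high end in most rows, while Ckm 1444643_at and 2 Trdn probe sets depart from this.

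To compare the order of tumours without the scale, each probe set was set to 0 at its lowest and 1 at its highest tumour. Averaged over the brightest probe sets of the 10 genes, the position was 0.0368, 0.103 and 0.936 in TNKO tumours 1 to 3, and 0.522, 0.988 and 0.525 in WT tumours 1 to 3. TNKO tumour 3 was never below 0.808 and WT tumour 2 never below 0.884. TNKO tumours 1 and 2 were the 2 lowest in 8 of the 10 genes, all but Cacna1s and Trdn, against 8.81% of all 18193 genes. That order was seen in 4 of 6 calcium genes and 4 of 4 energy genes, and the difference between these counts was not tested. The pair of tumours was chosen after the values of these same genes had been seen, so the counts are descriptions only. On the deposited scale the mean level of the 10 genes was 6.4326, 6.4330 and 6.4463 in TNKO tumours, and 6.4429, 6.4471 and 6.4416 in WT tumours. Ckm weighs most in that mean, which differed by -0.00654, with a within-group SD of 0.00587. Without TNKO tumour 3 it differed by -0.011, and without TNKO tumour 1 by -0.00419.

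**Figure D3:**
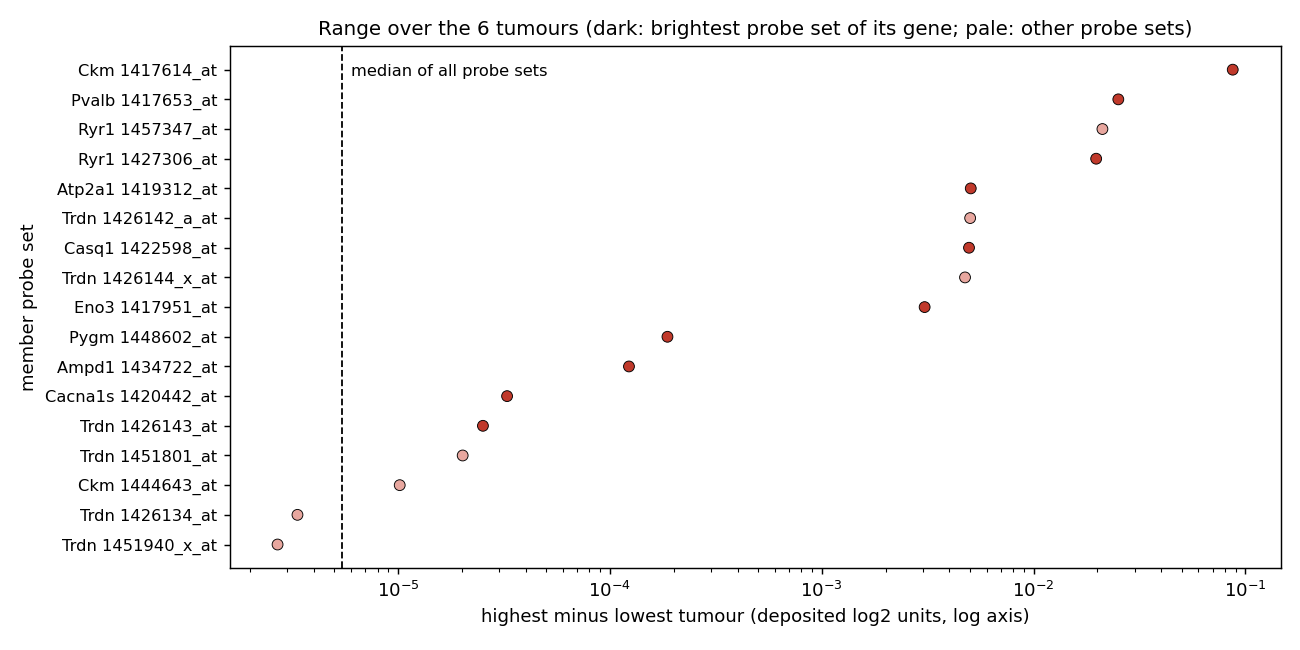
Range between the lowest and the highest of the 6 tumours for each of the 17 probe sets, on a log axis in deposited log2 units. Dark points are the brightest probe set of a gene, pale points the others, and the dashed line is the median of all probe sets, 5.46e-06. Ckm 1417614_at spans 0.0871, and 2 Trdn probe sets lie below the median.

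TNKO tumour 3, which its own values set apart, was left out in 1 of the settings. The means of 15 of the 17 probe sets were lower in TNKO hosts with it and without it. Of all 45037 probe sets, 20524 were lower with it and 20253 without it. Without it, 10 of the 17 probe sets had an unadjusted p under 0.05, all 10 lower in the TNKO tumours left, where 18.7% of all probe sets had one and 9.28% were lower. None passed adjustment in that fit, the lowest adjusted p being 0.135 for Ckm, with a difference of -0.0703 (SE 0.00942), and 0.0133% of all probe sets were called. Ryr1 then differed by -0.0139 (adjusted p = 0.2) and -0.015 (adjusted p = 0.167) in its 2 probe sets, Pvalb by -0.0176 (adjusted p = 0.229) and Atp2a1 by -0.00331 (adjusted p = 0.213). In the fit without TNKO tumour 3, the brightest probe set had an unadjusted p under 0.05 in 7 of the 10 genes. Leaving out any 1 other tumour instead gave 0 or 1 of the 17 probe sets. TNKO tumour 3 was singled out from its own values, so these counts are a description only. No label sets this tumour apart from the other TNKO tumours, and the samples carry no batch label.

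Paralogs of the 10 genes were read to see whether the order belonged to the families or to their muscle members. Of 16 paralogs with a probe set, 8 had lower and 8 higher means in TNKO hosts, and in their brightest probe sets 0 were called and 0 had an unadjusted p under 0.05. TNKO tumours 1 and 2 were the 2 lowest in 2 of the 16, which were Casq2, the calsequestrin of heart and slow fibres, and Ckmt2, the mitochondrial creatine kinase of striated muscle. Casq2 differed by -3.44e-05 (adjusted p = 0.928) and Ckmt2 by -0.000636 (adjusted p = 0.343). Ckb, the creatine kinase of brain and many other tissues, had the order turned round: 7.82062, 7.82061 and 7.82049 in TNKO tumours, against 7.82057, 7.82052 and 7.82057 in WT tumours. It differed by 2.21e-05 (adjusted p = 0.813). Pygl, the liver glycogen phosphorylase, was highest in TNKO tumour 1, at 7.8035, against 7.8020 and 7.8015 in the other TNKO tumours and 7.8014 to 7.8018 in WT tumours. It differed by 0.000724 (adjusted p = 0.561). The median range over the tumours was 8.44e-06 for the paralogs, against 0.00401 for the 10 genes and 5.73e-06 over all genes. Most paralogs thus hardly varied on this scale, and their order of tumours cannot show whether the families share it. Casq2 and Ckmt2 spanned 0.000401 and 0.00138, while Eno2 and Pygl spanned 0.0004 and 0.00211 without that order. No test compared the paralogs with the 10 genes.

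One of the 34 probe sets of these paralogs was called, a dimmer one of Atp2a2, 1443551_at. Atp2a2 encodes SERCA2, the pump of heart, slow fibres and most other cells. It fell to 5.932750, 5.932760 and 5.932756 in TNKO tumours, against 5.932810, 5.932813 and 5.932813 in WT tumours. The groups did not overlap, and TNKO tumour 3 lay with the other TNKO tumours. The difference was -5.66e-05 (SE 2.87e-06, adjusted p = 0.0398). The brightest Atp2a2 probe set, at 11.74, differed by -2.25e-06 (adjusted p = 0.455) and its groups overlapped. The call was lost without any 1 of the 6 tumours (adjusted p = 0.0607 to 0.133), while the difference stayed at -5.89e-05 to -5.39e-05. It was also lost with the replicate number as a block (difference -5.66e-05, adjusted p = 0.142) and under both scalings (adjusted p = 0.588 with quantile normalization and 0.99 with array medians subtracted).

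**Figure D4:**
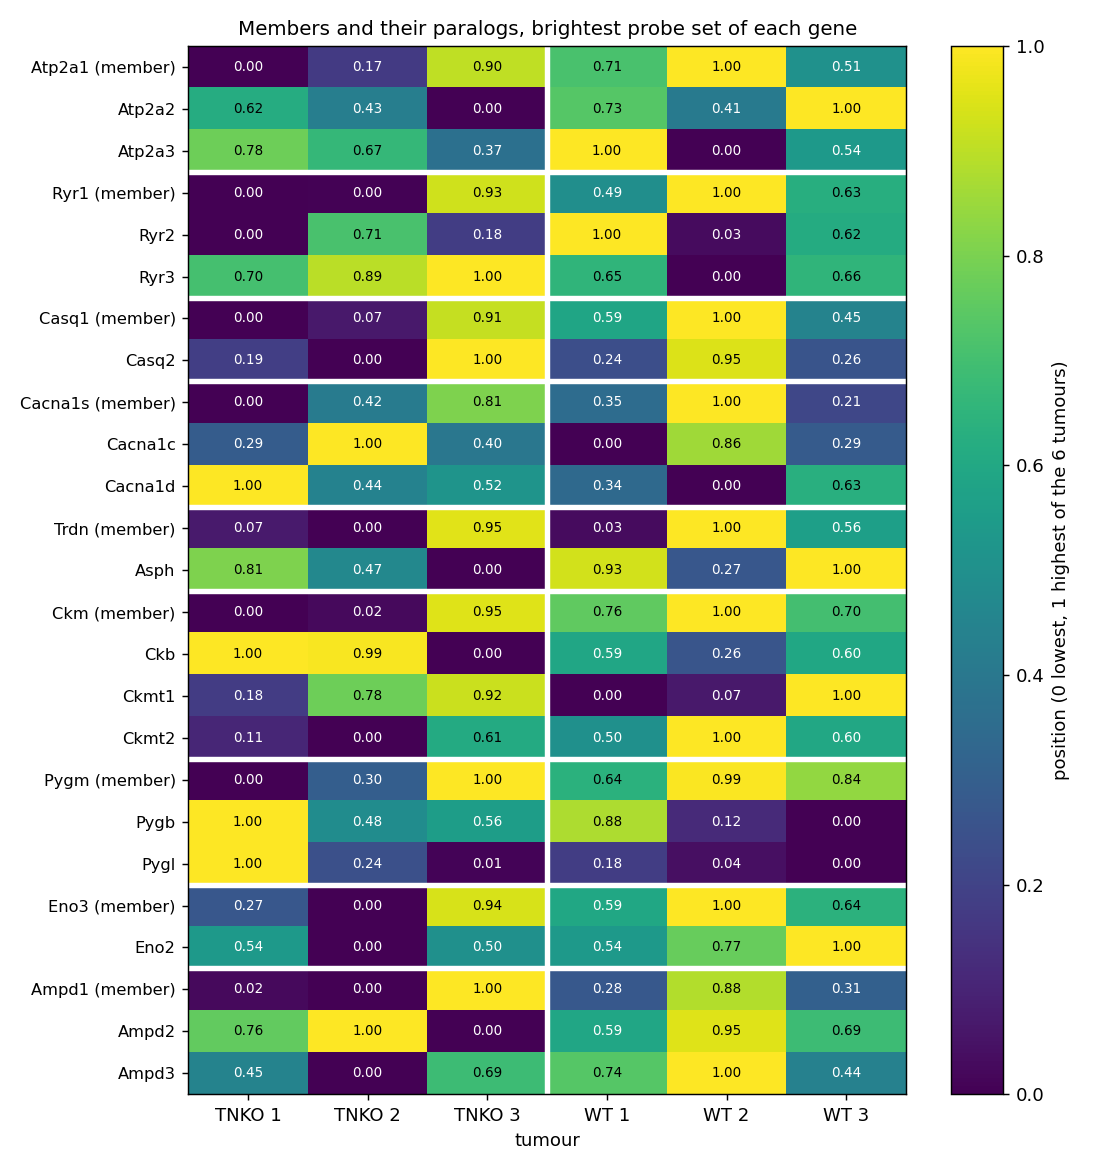
Place of each tumour (columns) within the range of the brightest probe set of each gene, from 0 for the lowest to 1 for the highest of the 6 tumours, for 9 of the 10 genes and their paralogs, with families parted by white lines. Most of the muscle members are dark at TNKO tumours 1 and 2 and bright at TNKO tumour 3 and WT tumour 2. Casq2 and Ckmt2 partly share this order. Cacna1s is at 0.42 in TNKO tumour 2, above WT tumours 1 and 3, and in Trdn WT tumour 1 is also dark, at 0.03.

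Other genes of the same 2 processes were read from lists. Of 23 further genes of the sarcoplasmic reticulum and the triad, 0 were called in either direction, 15 had lower and 8 higher means in TNKO hosts, and the median difference was -1.45e-06, against 2e-07 over all genes. TNKO tumours 1 and 2 were the 2 lowest in 10 of the 23. Sln, encoding sarcolipin, a small inhibitor of the calcium pump, stood at 6.1463, 6.1476 and 6.1774 in TNKO tumours and at 6.1536, 6.1695 and 6.1624 in WT tumours (difference -0.00472, SE 0.0104, adjusted p = 0.849). Its highest tumour was TNKO tumour 3. Srl, encoding sarcalumenin of the reticulum lumen, differed by -0.000823 (adjusted p = 0.679) and Chrna1, the acetylcholine receptor subunit of the neuromuscular junction, by -0.000185 (adjusted p = 0.72). S100a1, a calcium-binding protein of striated muscle, differed by 6.59e-05 (adjusted p = 0.121), its lowest TNKO tumour lying above its highest WT tumour. Its unadjusted p, and that of Cacnb1, were the 2 of the list under 0.05.

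Of 23 further genes of muscle ATP supply, 0 were called (3 had an unadjusted p under 0.05), 14 had lower and 9 higher means in TNKO hosts, and the median difference was -6.95e-07. Mb, encoding myoglobin, the oxygen store of muscle, had the order of the 10 genes and its TNKO tumours 1 and 2 were the 2 lowest, as in 6 of the 23 genes. It stood at 6.19, 6.29 and 7.22 in TNKO tumours and at 7.04, 7.27 and 6.97 in WT tumours, a difference of -0.52 (SE 0.318, adjusted p = 0.429). Part of the list went another way. Cox8b, a cytochrome oxidase subunit of muscle and brown fat, stood at 7.13, 6.98 and 6.94 in TNKO tumours and at 6.92, 6.94 and 6.91 in WT tumours, a difference of 0.094 (SE 0.0535, adjusted p = 0.403). Cox7a1, another such subunit, differed by 0.00964 (adjusted p = 0.502), and Gpd1, a glycerol phosphate dehydrogenase that fat also uses, by 0.00834 (adjusted p = 0.404). TNKO tumour 1 was the highest tumour in 5 genes of the list, which besides these 3 were Slc2a4, the glucose transporter of muscle and fat, and Fabp3, a fatty acid carrier.

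Contractile markers mostly had the order of the 10 genes. The groups did not overlap in 2 of the 12 fast fibre markers, against 4745 of all 18193 genes. Of the 8 slow fibre markers 1 was lowest in TNKO tumour 3. The 2 lowest tumours were TNKO 1 and 2 in 11 of 12 fast fibre markers and in 6 of 8 slow fibre markers, and all 20 had lower means in TNKO hosts, with 0 called and 0 at an unadjusted p under 0.05. Myh1, a fast myosin heavy chain, stood at 6.17, 6.64 and 9.28 in TNKO tumours and at 8.94, 9.44 and 8.65 in WT tumours (difference -1.65, SE 0.929, adjusted p = 0.398). The summed level of the 12 fast fibre markers was 82.5, 83.2 and 89.1 in TNKO tumours and 87.6 to 89.4 in WT tumours, and that of the 8 slow fibre markers was 57.55 to 57.58 in TNKO tumours and 57.56 to 57.59 in WT tumours.

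Adipocyte markers had another order: TNKO tumour 1 was highest in 8 of 8 and WT tumour 3 lowest in 7 of 8. Their summed level was 58.0 and 57.0 in TNKO tumours 1 and 2, 54.9 in TNKO tumour 3, and 53.6 to 55.4 in WT tumours. Adipoq, which encodes the fat hormone adiponectin, stood at 8.289, 7.976 and 7.033 in TNKO tumours and at 7.376, 6.605 and 6.462 in WT tumours (difference 0.95, SE 0.441, adjusted p = 0.321). The 13 hair and epidermis markers summed to 84.3, 84.7 and 105.4 in TNKO tumours and to 84.2 to 84.4 in WT tumours. The list was mixed: 8 of the 13 were highest in TNKO tumour 3, among them the epidermal keratin gene Krt5. The epidermal genes Krt1, Krt10, Krt14, Lor and Flg were highest in WT tumour 3 and had lower means in TNKO hosts. The list thus did not part cleanly into hair and epidermal genes. The tumour in which the 10 genes differed from the rest of its group was also the tumour with the highest sum over this list, and the 2 tumours with the lowest muscle genes had the highest adipocyte genes. The part of these tissues in the result was not tested.

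**Figure D5:**
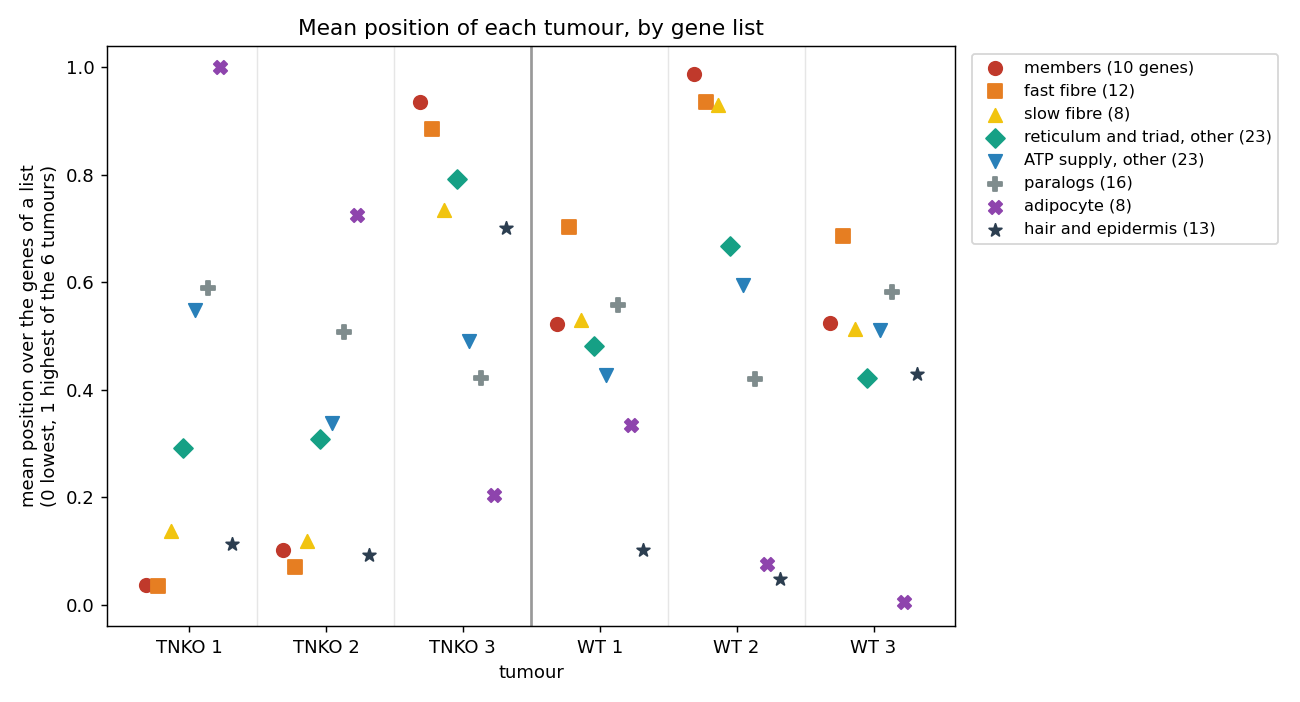
Mean place of each tumour over the genes of a list, where 0 is the lowest and 1 the highest of the 6 tumours for a gene, with the number of genes in brackets. The 10 genes and the fast fibre markers are near 0 in TNKO tumours 1 and 2 and near 0.9 in TNKO tumour 3, while adipocyte markers run from 1 in TNKO tumour 1 to 0.0053 in WT tumour 3 and paralogs stay between 0.42 and 0.59.

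Among 176 other genes whose brightest probe set spanned at least 0.01, the 5 whose pattern was most like the mean of the 10 over the 6 tumours were Bex1, Smpx, Myom2, Csrp3 and Asb5. Pearson's r was 0.999 for Bex1 and 0.996, 0.994, 0.994 and 0.993 for the others, as a description over 6 tumours that share their arrays and groups. Myom2 encodes a protein of the sarcomere M band and Csrp3 the muscle LIM protein. Bex1 stood at 5.6135, 5.6156 and 5.6341 in TNKO tumours and at 5.6245, 5.6343 and 5.6242 in WT tumours, and did not pass (adjusted p = 0.649). Myom2 stood at 5.98, 5.99 and 6.10 in TNKO tumours and at 6.06, 6.10 and 6.05 in WT tumours (adjusted p = 0.545).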

How the data were processed

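RNA of 6 tumours was labelled from 100 ng with a 3' in vitro transcription kit and hybridised to Affymetrix arrays, per the labels' protocols. The authors deposited 1 value per probe set and array for 45101 probe sets, read as log2 because the levels lie in a log2-like range. Per the submitters' processing notes R 2.7.2 was used, while the sources used here give no summarization or normalization. The deposited values differ very little between arrays.

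The 64 control probe sets were left out. Gene names came from the platform annotation (2016). Their gene identifiers gave the same symbols in RefSeq for all 17 probe sets. The probe set with the highest mean stood for a gene in lists. TNKO minus WT was fitted on all 45037 probe sets with limma 3.58.1 in R 4.3.3 (lmFit, eBayes, two-sided) and adjusted by Benjamini-Hochberg at 0.05. The fit was tested on simulated data with 50 probe sets changed by each size. Changes of 5 residual SDs gave 3 calls and of 10 gave 39, those of 20 and 40 gave 48 and 50, and 3 unchanged probe sets were called. The simulated noise was normal and independent between probe sets, with no tumour set apart. The real probe sets move together, so these counts do not show the rate of false calls in the real data.

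The members, the lists and the rule for named genes were chosen with earlier results of these data known. That rule took the members and paralogs, the 4 largest differences per list and the 5 most similar patterns. Slc2a4, Fabp3, Cacnb1 and some of the named hair and epidermis markers fall outside it and were chosen once their values were known. Alternatives tried were 2 scalings, 3 other variance settings, 2 filters, a replicate block and leaving out each array. Same-numbered tumours did not deviate together (correlations 0.0289, -0.0157 and 0.00531).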

Additional observations from a re-analysis of the deposited data

How the results depend on the processing

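None of the 17 probe sets was called under any of the 14 settings run, the lowest adjusted p being 0.135, and 204 of their 214 values kept their direction. The 2 filters tested only part of the 17: 1, of Eno3, was above the median level and 9 spanned at least 0.001. Leaving out 1 tumour gave -5.86e-05 to 6.21e-06 for Ampd1, -1.03e-05 to 4.05e-06 for Cacna1s, -1.25e-05 to 1.12e-06 for Trdn 1426143_at, -0.000155 to 5.87e-05 for Casq2 and -0.0149 to 0.000694 for Sln. Quantile normalization turned Ckm 1444643_at to -0.000413 and Trdn 1451801_at to 3.48e-05, and subtracting array medians turned Ckm 1444643_at to -0.000761 and Trdn 1426134_at to -0.000763. These 2 scalings shifted all probe sets by a median of -0.000538 and -0.000764, more than Pygm, Ampd1, Cacna1s or the brightest Trdn probe set differed as deposited. They also turned Ckb (-0.000389 and -0.000742) and S100a1 (-0.000415 and -0.000698), and the second turned Pygl (-3.98e-05). Under these scalings 44376 and 44672 of all 45037 probe sets were lower in TNKO hosts. A lower direction kept there therefore says little about the 17.

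Among the 59 pathway genes and paralogs, subtracting medians called 1, Mb, and every other setting 0. Mb had an adjusted p of 1.18e-92 in that fit, although its groups overlapped as deposited. Myh1, Adipoq and Krtap8-1 were called there too, and Krtap8-1 was high in 1 tumour only (adjusted p = 0.601 as deposited). A call in that fit therefore does not mean that the groups differed beyond the spread of the tumours. The 79 calls over all probe sets (60 lower, 19 higher) became 10 lower and 58 higher with medians subtracted. They became 0 with quantile normalization (591 at an unadjusted p under 0.05), 285 among probe sets above the median level and 0 among those spanning at least 0.001 (155 unadjusted). With the replicate block they became 0 (7816 unadjusted), and the 17 had adjusted p-values of at least 0.329. Leaving out TNKO tumour 1, 2 or 3 left 1, 4 and 6 calls, leaving out WT tumour 1 or 3 left 0, and leaving out WT tumour 2 left 73. The mean level of the 10 genes differed by -0.011 without TNKO tumour 3 and by -0.00419 without TNKO tumour 1, the ends of its range. The cause of these changes was not tested.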

Other observations

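Further marker lists were read for the same order, with no test between lists. Of 8 myogenic regulators and satellite cell markers, TNKO tumours 1 and 2 were the 2 lowest in 4. These were Myog, Myf5 and Myf6, factors of muscle determination and differentiation, and Mef2c, a partner factor. Part of the list went another way: 5 of the 8 had lower and 3 higher means in TNKO hosts, and 3 were highest in TNKO tumour 2. Myog stood at 6.1464, 6.1463 and 6.1526 in TNKO tumours and at 6.1477, 6.1523 and 6.1501 in WT tumours (adjusted p = 0.754). Of 7 cardiac markers 1 had that order, and of 7 smooth muscle markers 1, Des, which encodes desmin and is shared with skeletal muscle (6.951, 6.953 and 6.959 in TNKO tumours, 6.955, 6.958 and 6.956 in WT tumours; adjusted p = 0.695). Of 5 epithelial markers of the tumour 1 had it, Cdh1, and Krt8 stood at 11.45 in all 6 tumours. None of these 27 genes was called, and 2 had an unadjusted p under 0.05.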
